A study of Mus musculus with 35 samples.

Results

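Cytosolic ribosomal protein genes encode the proteins that, with ribosomal RNA, build the large (Rpl, Rplp) and small (Rps) subunits of the ribosome that translates nuclear mRNAs. Here they were taken as every probe of the authors' ganglia table with a single gene symbol that starts with Rpl or Rps and a digit, Rplp or Rpsa, with the Rps6k kinases (7 probes) left out. The rule found 135 of 12688 probes, for 62 of 7804 genes. Of these, 84 probes read 37 large-subunit genes, 48 read 23 small-subunit genes, and 3 read the paralogs Rpl36al and Rps27l. The 67 probes of mitochondrial ribosomal proteins, which belong to a separate ribosome, are no members.

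The arrays came from mice homozygous for TH-MYCN, a transgene in which the tyrosine hydroxylase promoter drives human MYCN in the sympathetic lineage and neuroblastoma arises there. All 35 arrays, ganglia included, carry the transgene, so no comparison sets transgenic against wild-type tissue. Set 1 held 24 neuroblastomas, 6 in each of 4 size classes: small (0.05 to 0.1 g, life span 28 to 42 days), medium (0.24 to 0.46 g, 35 to 42 days), large (0.76 to 1.3 g, 35 to 46 days) and very large (1.6 to 3 g, 35 to 45 days). Set 2 held sympathetic ganglia with foci of neuroblast hyperplasia from day 0 (n = 5), day 7 (n = 2) and day 14 (n = 2) of life, and 2 small tumors of 0.08 and 0.1 g. By their names these 2 tumors are also small replicates 6 and 3 of set 1, so each was read on arrays of both sets. The labels do not say whether a ganglia specimen is 1 mouse or a pool, and p-values measure the spread between these specimens.

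Cells make ribosomal proteins in near-equal numbers, and their mRNAs are among the most abundant in growing tissue. MYC family factors are known to raise ribosome production, and ribosomal protein mRNAs start with a run of pyrimidines through which the growth-sensing kinase mTOR controls their translation. Excess Rpl5 and Rpl11 bind Mdm2 and so stabilise p53, and loss of 1 copy of Rps19 is a cause of Diamond-Blackfan anemia in humans. Many ribosomal protein genes also have processed pseudogene copies of nearly the same sequence. The files hold no probe sequences, so a probe could also read such a copy, and each value below is that of a probe. Rplp0, Rplp2, Rpl5, Rpsa and Rps27a had no probe under the rule.

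RefSeq promoter sequence (GRCm38.p6, 250 bases before to 50 after the gene start) was found for 46 of the 62 genes. The letters CCGGAAG, a binding site of the ETS family factor GABPA, stood on either strand in 18 of these 46 promoters (39.1%), against 9.93% of 27025 promoters of all genes and 40.7% of 59 promoters of mitochondrial ribosomal proteins. The run CTCTTT, searched only on the strand of the gene in the last 100 bases, stood in 13 (28.3%) against 4.68% of all genes. The E-box CACGTG, bound by MYC and MYCN, was in 5 (10.9%) against 8.09%, and the YY1 motif AAGATGG in 8 (17.4%) against 7.28%, both strands searched. A match describes the letters and is no evidence of binding. These 5 stretches run from 70 bases before to 20 after the start, 5′ to 3′ on the strand of the gene, and capitals mark CCGGAAG or CTCTTT. They belong to genes with a probe called in tumors against day 0 ganglia on set 2 arrays. For the same tumors on set 1 arrays the rises of Rpl41 (-0.04), Rpl4 (0.05) and Rps6 (-0.23) were not called. Rpl31 had probes called in both directions on set 2 arrays. A link between these letters and the changes was not tested.
Rpl41 (chr10:128549149-128549238, minus strand): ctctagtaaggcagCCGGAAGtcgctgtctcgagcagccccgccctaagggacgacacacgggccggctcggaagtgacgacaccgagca
Rps3a1 (chr3:86142649-86142738, minus strand): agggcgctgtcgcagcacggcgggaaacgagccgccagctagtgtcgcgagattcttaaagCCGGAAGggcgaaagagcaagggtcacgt
Rpl31 (chr1:39367781-39367870, plus strand): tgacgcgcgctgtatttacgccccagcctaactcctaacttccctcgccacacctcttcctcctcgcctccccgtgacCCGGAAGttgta
Rps6 (chr4:86857348-86857437, minus strand): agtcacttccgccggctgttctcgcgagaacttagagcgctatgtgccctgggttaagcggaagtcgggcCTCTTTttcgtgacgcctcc
Rpl4 (chr9:64173317-64173406, plus strand): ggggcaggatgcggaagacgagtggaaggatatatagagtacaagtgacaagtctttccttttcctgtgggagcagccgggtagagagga
Rpl4, whose probe rose 3.54-fold in tumors on set 2 arrays only, holds neither motif in this stretch.

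Levels are log2 intensities. In set 2 they come from the quantile-normalized table of the authors, and in set 1 from the deposited unnormalized intensities after quantile normalization here, so a level of one set is not on the scale of the other. Before normalization the lowest and highest array medians were 558 and 1292 (set 1) and 656 and 1514 (set 2). The probes lay at the top of the intensity range: they made up 25 of the 100 brightest and 72 of the 500 brightest probes in set 2, and 31 and 90 in set 1. The brightest in set 2 were Rpl32 (probe 895735, the first of all 12688 by mean level), Rpl26 (902368), Rpl12 (892967) and Rps15 (901905), and among the dimmest were Rpl30 (718238), Rps27 (774283) and Rpl36a (362031). In set 1 the brightest were Rpl13a (899363), Rps12 (900099), Rps2 (899244) and Rpl19 (904126), and the dimmest Rpl37 (853969), Rpl30 (718238), Rps27 (774283) and Rps27l (781401). Rpl30 and Rps27 thus have a probe among the dimmest and another among the bright ones. Over the 36 genes with several probes the span between probes of a gene had a median of 4.34 log2 units and reached 9.80, so a probe's level is not the level of its gene's mRNA.

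The largest differences lay between tumors and ganglia. Against day 0 ganglia, of the 135 probes 59 rose (43.7%) and 13 fell (9.63%) past an adjusted p of 0.05 in limma with Benjamini-Hochberg adjustment over all 12688 probes, of which 18.4% rose and 18.9% fell. The median change was 0.43 log2 (1.34-fold) for the ribosomal protein probes and 0.01 for all probes. Large-subunit probes rose in 33 and fell in 9 of 84 (median 0.39), and small-subunit probes rose in 24 and fell in 4 of 48 (median 0.58). Without the 0.1 g tumor 33 rose and 12 fell. With the unnormalized table centred on array medians, 22 rose and 18 fell, and the median was 0.17. With no normalization between arrays 56 rose and 3 fell, with medians of 1.11 for the members and 0.92 for all probes. Counts after leaving out an array or changing the processing, here and below, have no share of all probes beside them. They are not read as particular to the members.

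**Figure D1:**
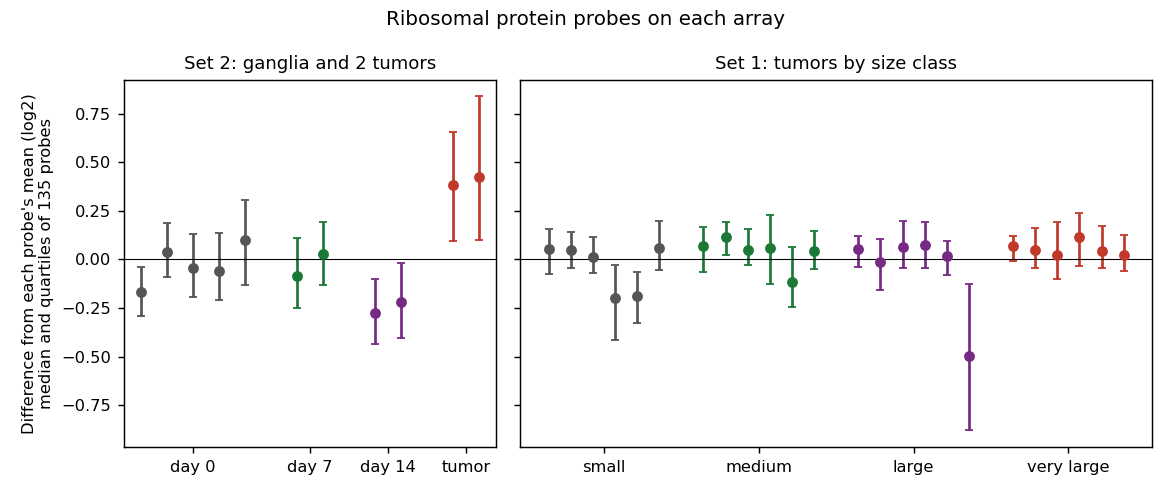
Difference of the 135 probes from their own mean over the set (log2), 1 point per array with the median and bars for the quartiles. The tumor arrays of set 2 stand at 0.38 and 0.43 and the day 14 arrays at -0.28 and -0.22; in set 1 the medians lie between -0.20 and 0.12 except on large replicate 6, at -0.49.

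Rpl4, a core protein of the large subunit, stood at 16.29, 16.73, 16.84, 16.64 and 16.87 in the 5 day 0 ganglia, at 16.51 and 16.48 on day 7, at 16.02 and 15.96 on day 14, and at 18.59 and 18.40 in the tumors (probe 353265). The tumors were above every ganglion, by 1.82 log2 over day 0 (SE 0.18, 3.54-fold, limma adjusted p = 7.52e-06). Rpl41, the smallest protein of the ribosome, read 16.06, 15.75, 15.73, 15.44 and 15.01 on day 0, 15.23 and 15.60 on day 7, 14.76 and 15.17 on day 14, and 17.41 and 17.53 in the tumors (467882). Both tumors were above all ganglia, and the change from day 0 was 1.87 (SE 0.26, limma adjusted p = 0.000118). Rps24, a small-subunit protein that acts in pre-rRNA processing, read from 15.23 to 16.42 in day 0 ganglia, with a median of 15.92, and 17.77 and 17.37 in tumors (548465), a change of 1.69 (SE 0.27, limma adjusted p = 0.000344). Its brighter probe rose by 0.60. Rpl11, the Mdm2-binding protein, read 12.36, 12.80, 11.72, 11.79 and 11.61 on day 0 and 13.87 and 13.72 in tumors (643745). Tumors were above all ganglia here as well, by 1.74 over day 0 (SE 0.35, limma adjusted p = 0.00168). Rpl12, a protein of the base of the stalk, differed by probe: its dim probe (372691) rose by 1.62 (limma adjusted p = 0.000565), from between 12.85 and 13.64 to 15.06 and 14.78, while its bright one gave 0.27 (adjusted p = 0.151).

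Rps3a1, a small-subunit protein at the mRNA exit side, read 20.11, 20.01, 19.91, 20.53 and 19.56 on day 0, 20.01 and 19.96 on day 7, 19.81 and 19.83 on day 14, and 21.41 and 21.74 in tumors (901185). That is a rise of 1.55 (SE 0.20, limma adjusted p = 7.84e-05), and a dimmer probe of it rose by 1.49. Rps6, the ribosomal substrate of the S6 kinases, read 21.12, 21.35, 21.04, 21.20 and 21.13 on day 0, 21.50 and 21.54 on day 7, 21.20 and 21.45 on day 14, and 21.75 and 21.94 in tumors, with no overlap between tumors and ganglia (change 0.68, SE 0.12, limma adjusted p = 0.000869). Rps19 rose by 0.59 (SE 0.13, limma adjusted p = 0.00361), from between 19.97 and 20.34 on day 0 to 20.68 and 20.65. All 4 probes of Rps18, a protein of the small-subunit head, rose, by 0.57 to 1.20. Both bright probes of Rpl30, a small core protein of the large subunit, rose, by 1.08 and 1.12, while its dimmest probe (718238) gave -0.25 (limma adjusted p = 0.678).

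Among the paralogs, Rpl36al rose by 0.38 (SE 0.12, limma adjusted p = 0.0237), from between 19.32 and 19.50 to 19.75 and 19.76. None of the 4 probes of its parent gene Rpl36a passed, with changes from 0.09 to 1.13. Rps27l, a p53 target in human cells, gave 2.14 on its dim probe, the highest of all members (781401, SE 0.60, limma adjusted p = 0.0135). That probe varied widely among the day 0 ganglia (9.93, 11.26, 12.01, 11.94 and 12.96) and read 13.75 and 13.78 in tumors. The bright Rps27l probe gave 0.31 (adjusted p = 0.390), with tumors inside the day 0 range. The bright probe of its parent Rps27 gave 0.11 (limma adjusted p = 0.694).

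**Figure D2:**
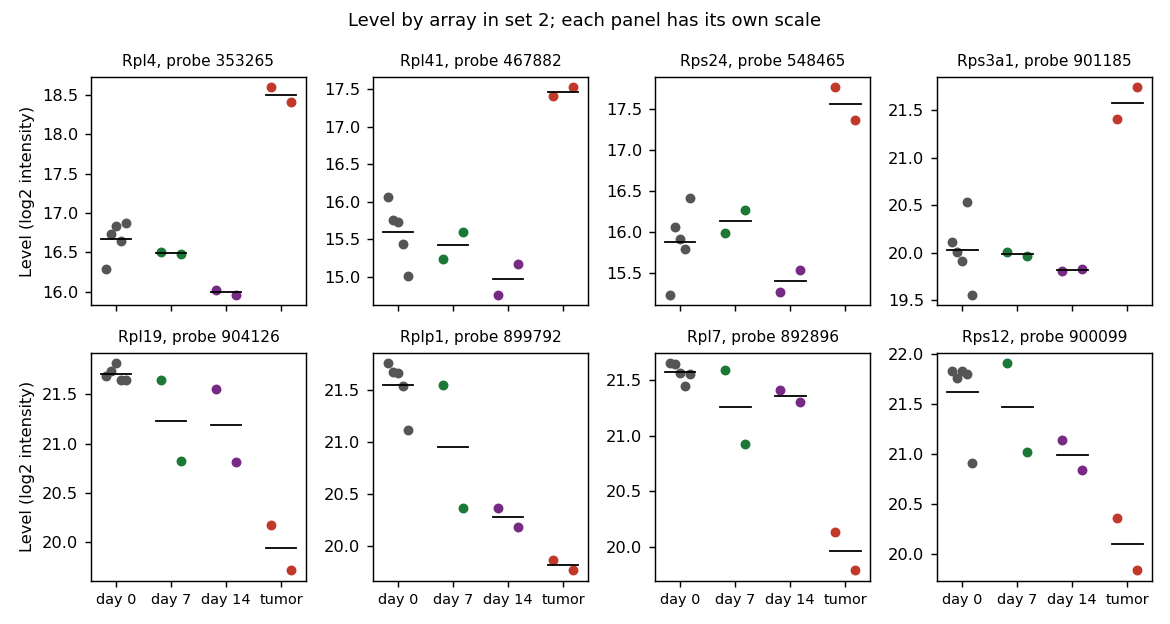
Level (log2 intensity) of 8 probes on the 11 arrays of set 2, 1 point per array and a line at each group mean. Top row, probes that rose; bottom row, probes that fell, where the tumors lie below every ganglion.

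The 13 probes that fell were bright ones, with Rpl13 (896698) the exception. Rpl19, whose carboxy end reaches towards the small subunit, read 21.68, 21.74, 21.81, 21.64 and 21.64 on day 0, 21.64 and 20.82 on day 7, 21.56 and 20.81 on day 14, and 20.18 and 19.71 in tumors (904126). It fell by 1.76 (SE 0.23, limma adjusted p = 6.42e-05), and both tumors were below all ganglia. Rplp1, a protein of the stalk that recruits elongation factors, fell on both its probes, by 1.73 and 1.14. On the first (899792) the day 0 ganglia read 21.76, 21.67, 21.66, 21.54 and 21.11, and the tumors 19.87 and 19.76. Rpl7 fell by 1.62 on its brightest probe (892896, 21.65, 21.64, 21.57, 21.44 and 21.56 on day 0, 20.13 and 19.79 in tumors) and rose by 0.78 on another (902477, limma adjusted p = 0.0140). Rps12, a small-subunit protein needed in cell competition in Drosophila, fell by 1.52 on its bright probe (900099), where 1 day 0 ganglion stood at 20.90, the other 4 between 21.75 and 21.82, and the tumors at 20.36 and 19.84.

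By level, the falls lay at the top. Split by mean level in set 2 into 5 equal ranges of 27 probes, the brightest range held 6 probes that rose and 11 that fell (median -0.25), and the 4 dimmer ranges held 53 that rose and 2 that fell. The other 108 probes in the brightest range gave 14 that rose and 54 that fell (median -0.44). Falls at this brightness were thus common outside the ribosomal protein genes as well. Ranking by mean level over set 2, where most arrays are ganglia, can favour falls in the brightest range.

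**Figure D3:**
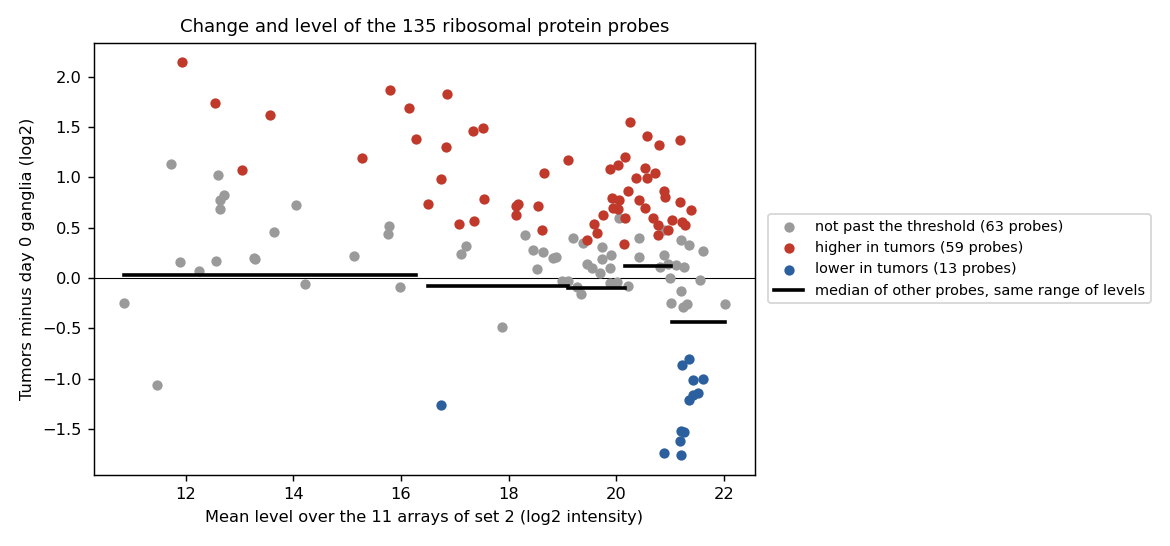
Change from day 0 ganglia to tumors (log2) against mean level over set 2 (log2 intensity), 1 point per probe. Thick lines give the median change of all other probes in the same range of levels; 11 of the 13 blue points lie in the brightest range.

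Probes of a gene often disagreed in size and sometimes in direction. Each less bright probe was set against the gene's brightest by mean level over set 2, where 9 of 11 arrays are ganglia, and the difference in change was tested in limma. The bright probes of the paralogs Rpl36al and Rps27l were set against those of their parents in the same way. Of these 75 ribosomal protein pairs, 73 lay within a gene and 2 joined paralog and parent. Among them 39 differed (52%), all within a gene and in 16 genes. The share was 20.2% of all 554 pairs on the array and 15.2% of the 479 pairs of other genes. Pairs of a gene share its brightest probe and are not independent. Counted by gene, 16 of 37 ribosomal protein genes had a pair that differed, against 73 of 452 other genes. In 36 of the 39 the less bright probe rose relative to the brightest, as it did in 45 of the 73 pairs of other genes that differed. Picking the brightest probe mainly on ganglia arrays can favour this direction. Rpl21, Rpl13, Rpl26, Rpl29, Rpl31, Rpl7 and Rps2 had probes called in both directions, 32 genes were called higher only, 4 lower only and 19 in neither direction. All 13 dimmer probes of Rpl21, a large-subunit protein with many pseudogenes, rose relative to the brightest, by 1.00 to 1.68: that one (902901) fell by 1.16, and the others changed by -0.16 to 0.53. Of 9 Rps2 probes, for a protein at the mRNA entry channel, 5 rose by 0.69 to 1.32, 2 fell by 0.81 and 1.53, and 2 did not pass. The lowest (901987) was uneven between tumors, at 20.92 and 18.95. Rpl13 went the other way: its brightest probe (893371) rose by 0.55 and a dimmer one (896698) fell by 1.26, from between 16.85 and 17.10 to 15.68 and 15.77.

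**Figure D4:**
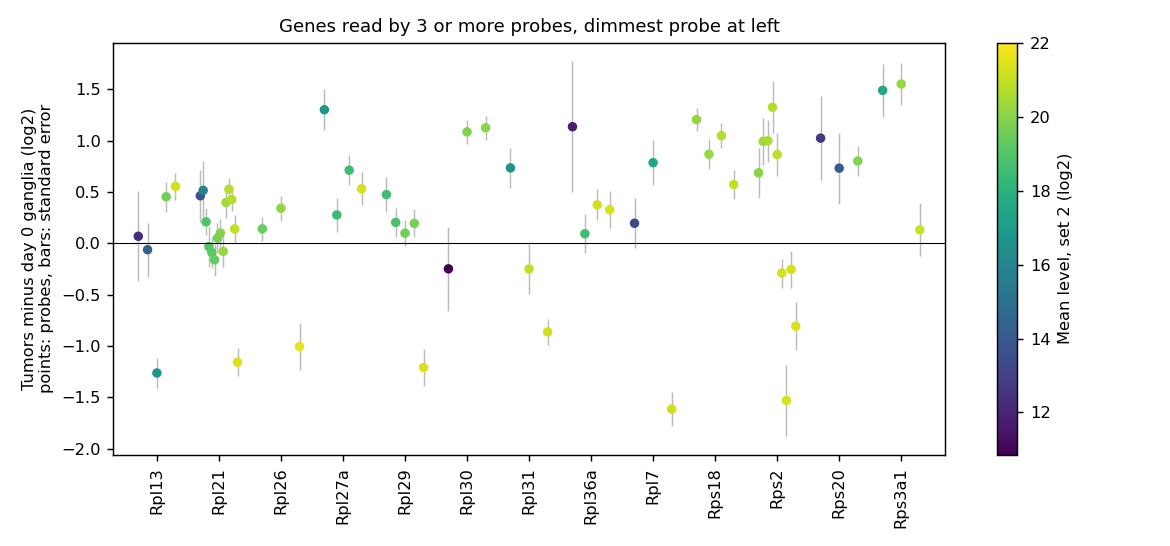
Change from day 0 ganglia to tumors (log2) of each probe of the 13 genes with 3 or more probes, with its standard error; colour gives mean level and probes run from dim to bright. In Rpl21, Rpl26, Rpl29 and Rpl31 the brightest probe lies below the others.

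The same 2 tumors read on their set 1 arrays allow a second look, chosen after the data had been seen; it shares the ganglia arrays and the tumors with the first and is no independent repeat. Each tumor's 2 arrays agreed less well than arrays of different tumors within a set: Pearson's r over 32996 probes was 0.890 and 0.898 across sets, 0.972 between the 2 tumors in set 2 and 0.966 in set 1. Against day 0 ganglia, 70 of the 135 probes were called higher (51.9%) and 7 lower (5.19%), where all probes gave 14.9% and 14.6%; the medians were 0.52 and -0.10. Single probes moved far between sets, from -5.53 to 5.87 against day 0 on set 1 arrays, and set and tissue cannot be told apart in these values. Rps3a1 (901185) gave 1.55 on set 2 arrays and 1.62 on set 1 arrays. Rps2 (899263) gave 1.32 and 1.15, and Rps19 0.59 and 1.04.

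For other probes the 2 readings gave different answers. The readings also differ in normalization and in the probes it covered. Rpl4 went from 1.82 to 0.05, Rpl41 from 1.87 to -0.04, Rps24 (548465) from 1.69 to -0.02, Rpl11 from 1.74 to -0.08, and Rps6 from 0.68 to -0.23. Among the falls, Rpl19 gave -1.76 and 0.22, Rps12 (900099) -1.52 and 0.57, and Rps2 (901987) -1.53 and 0.39. This Rps2 probe was called in both readings with opposite sign, as was Rpl14 (793761), at 1.38 and -0.74. Rpl13 (896698) was lower on both, by 1.26 and 0.94, as was Rplp1 (900517), by 1.14 and 0.49. In the brightest range 7 of 27 probes were called higher and 1 lower on set 1 arrays, where 14.9% and 14.6% of all probes were. Other probes of that brightness were not counted on set 1 arrays, so these counts are not read as particular to the members. Probes called higher outnumbered those called lower on both kinds of array.

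**Figure D5:**
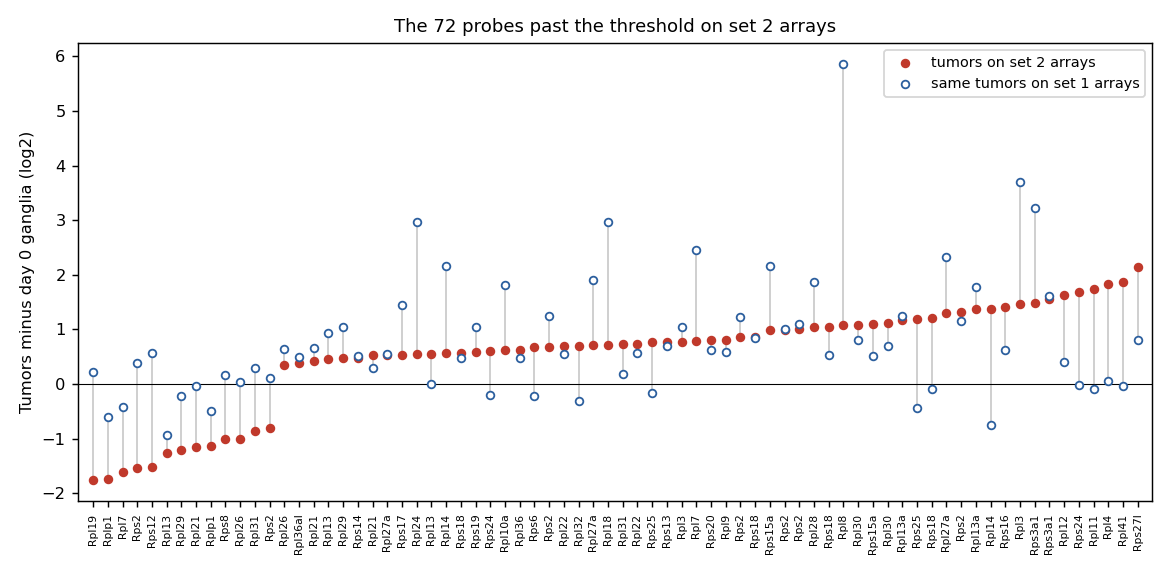
Change from day 0 ganglia (log2) for the 72 probes past the threshold on set 2 arrays, ordered by that value; filled points, tumors on set 2 arrays, open points, the same tumors on set 1 arrays. Both share the day 0 arrays. Open points of the 13 probes at the left lie mostly near 0.

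Related lists, fixed with earlier results of these data known, were read in tumors against day 0 ganglia on set 2 arrays. In that comparison 18.4% of all 12688 probes rose and 18.9% fell. Of 46 measured ribosome biogenesis factors, which assemble pre-ribosomes in the nucleolus, 26 rose and 2 fell (median 0.85), and Nolc1 (2.35), Ebna1bp2 (2.06) and Nop58 (1.88) had the smallest p. Of 16 translation factors and other genes with pyrimidine-start mRNAs, 7 rose and 1, Tpt1, fell (by 1.53). Mitochondrial ribosomal proteins rose in 14 and fell in 2 of 66 genes (median 0.19), with rises near the share of all probes. Of the ribosomal proteins outside the symbol rule, Rack1 rose by 0.88 and Fau by 1.27. Mycn, here the mouse gene, was lower in tumors by 4.01.

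The tumors also differed from day 0 ganglia in cell markers, in the comparison where 18.4% of all probes rose and 18.9% fell. Summed intensities, in units of 1000, of 8 measured proliferation markers were 161 to 316 on day 0 and 2825 and 2863 in tumors, and all 8 rose. Skeletal muscle markers (6 of 7 rose) went from 879 to 1518 up to 3093 and 3249, adipocyte markers (8 of 9 rose) from 323 to 751 up to 4697 and 5129, and myeloid markers (5 of 6 rose) from 232 to 381 up to 1806 and 1810. Neuronal markers (9 of 11 fell) went from 8603 to 14074 down to 5087 and 5300, Schwann and satellite glia markers (3 of 7 fell) from 1668 to 3165 down to 323 and 358, fibroblast matrix markers (7 of 8 fell) from 6136 to 7807 down to 3439 and 3481, and neuroblast and noradrenergic markers (9 of 15 fell) from 8508 to 12350 down to 5041 and 5262. No measured marker of these lists was at the floor on every array. Their part in the ribosomal protein values was not tested, and in bulk tissue fewer cells of a type and less RNA per cell cannot be told apart.

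Against day 7 ganglia 48 probes rose and 15 fell, where 15.4% and 16.9% of all probes did (median 0.44 against 0.06). The values for Rpl4 (2.00), Rpl41 (2.05) and Rps3a1 (1.59 on 901185) were close to those against day 0. Rps15a (902439), a small-subunit protein, read 15.64 and 16.39 on day 7 and 17.66 and 17.79 in tumors, a rise of 1.72 (SE 0.30, limma adjusted p = 0.00109). With arrays centred on their medians 23 rose and 16 fell, with a median of 0.26 against 0.06 for all probes. With no normalization 20 rose and 0 fell, on a scale where all probes had a median of 0.79 and the members 0.99. Without the 0.1 g tumor 22 rose and 9 fell, and without day 7 replicate 1 the counts were 23 and 9. Against day 14 ganglia 72 rose and 12 fell, the highest count of rises of the 3 comparisons, where 19.9% of all probes rose and 19.9% fell (median 0.64 against 0.06). Rpl4 gave 2.51 and Rpl41 2.50 here. Rps25, a small-subunit protein, read 14.59 and 14.26 on day 14 and 16.38 and 16.39 in tumors (592061), a rise of 1.96 (SE 0.27, limma adjusted p = 0.000127). Rpl36a (362031) rose by 2.39 (limma adjusted p = 0.0244), although 1 day 0 ganglion, at 13.70, stood above both tumors (12.99 and 12.74). With no normalization between arrays 10 probes rose and 0 fell (median 0.73, against 0.24 for all probes). The 3 comparisons share the tumor arrays.

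Within the ganglia the probes were lower on day 14. Of the 135 probes 8 fell and none rose against day 0, where 4.63% of all probes fell and 5.56% rose, and the median was -0.24 against -0.01. With no normalization between arrays that median was 0.31, with all probes at 0.71 and no member called, so the lower level is one relative to the other probes. Day 14 lay wholly below day 0 for 47 probes (34.8%, against 14.0% of all probes) and wholly above for 5 (3.70%, against 15.2%). Large-subunit probes had a median of -0.28 and held 7 of the 8 calls. Rplp1 (899792) read 20.37 and 20.18 on day 14, below all 5 day 0 ganglia, and fell by 1.27 (SE 0.26, limma adjusted p = 0.00960). The brighter Rplp1 probe (900517) was not called. The mean difference of 899792 from it was -0.23 on day 0 and -1.37 on day 14. Rpl29, which sits at the large-subunit surface, was called on 3 of its 5 probes. Its probe 899447 read 19.58, 19.64, 19.65, 19.76 and 19.77 on day 0, 19.70 and 19.49 on day 7, and 19.07 and 18.93 on day 14 (change -0.68, SE 0.12, limma adjusted p = 0.00597).

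The other calls were Rpl22 (-0.70), Rpl4 (-0.68), Rpl7a (-0.63) and Rps13 (-0.49). Rpl22, a large-subunit protein needed for T cell development in mice, read 19.55 and 19.05 on day 14 against 19.77 to 20.45 on day 0 (896986). Rpl7a, which binds rRNA in the large subunit, read 19.47 and 19.31 against 19.91 to 20.30. On these 2 probes, too, no day 14 value reached the day 0 range. The other Rpl22 probe (547361) was not called. Its mean difference from 896986 was -1.88 on day 0 and -1.51 on day 14. The count moved with the arrays used: 18 probes were called without day 0 replicate 1, 5 without day 0 replicate 3, 1 without day 14 replicate 1 and 0 without day 14 replicate 2. With day 0 replicates 3 to 5 alone, which carry another name series than replicates 1 and 2, 33 fell and 2 rose, and with replicates 1 and 2 alone 3 fell. These counts have no share of all probes beside them and are not read as particular to the members.

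On day 7 only Rpl39, the small protein that lines the exit tunnel, was called against day 0. It read 20.61 and 20.93 against 21.32, 21.20, 21.40, 21.53 and 21.54, a fall of 0.63 (SE 0.14, limma adjusted p = 0.0473), and no probe rose. Of all probes 0.512% fell and 1.47% rose. The count was 3 without day 0 replicate 1 or 2 and 0 without day 0 replicate 3, 4 or 5 or without day 7 replicate 2. With day 0 replicates 3 to 5 alone it was 25, with 13 higher and 12 lower. At an unadjusted p of 0.05, 23 of the 135 passed (17.0%), against 19.4% of all probes. Between day 14 and day 7, with 2 specimens each, limma called 0 ribosomal protein probes and 0.465% of all probes, and 21 members (15.6%) had an unadjusted p under 0.05, against 13.4% of all probes. Day 14 lay below day 7 for 70 probes (51.9%, against 26.8% of all) and above for 7 (5.19%, against 27.2%), and the median was -0.21 (0.23 with no normalization, where all probes stood at 0.56).

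Some marker lists moved between these stages. From day 0 to day 14, 5.56% of all probes rose and 4.63% fell. Schwann and satellite glia markers summed to 1668 to 3165 on day 0 and to 3750 and 4038 on day 14 (3 of 7 rose), adipocyte markers to 323 to 751 and 902 to 1352 (3 of 9 rose). Of 15 neuroblast and noradrenergic markers 3 rose and 5 fell from day 0 to day 14, and of 8 fibroblast matrix markers 2 rose and 2 fell. Proliferation markers reached 598 and 826 on day 7 and 280 and 303 on day 14. Their part in the ribosomal protein values was not tested. Of the 46 biogenesis factors 3 fell and 1 rose from day 0 to day 14, counts near those shares of all probes. The median of that list was -0.09, and Nop58 was lower by 1.03.

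Across tumor sizes in set 1 few ribosomal protein probes were called. In very large against small tumors 1 of 135 rose and none fell, where 2.25% and 2.45% of all 32996 probes did, and 18 members (13.3%) had an unadjusted p under 0.05, against 17.9% of all probes. The median change was 0.09 log2, against 0.03 for all probes, and turned to -0.29 against -0.26 with no normalization. In limma 0 probes were called in large against small tumors (2.31% of all probes) and 0 in medium against small (0.961%). At an unadjusted p of 0.05, 4 members (2.96%) passed in the former and 8 (5.93%) in the latter, against 14.5% and 10.8% of all probes. Along log10 tumor weight 1 rose and 1 fell, where 2.62% and 2.96% of all probes did.

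The called probe was Rpl14 (793761), a large-subunit protein. It ranged from 13.99 to 14.53 in small tumors with a median of 14.33, from 14.35 to 14.81 in medium (14.67), from 14.16 to 15.14 in large (14.46) and from 14.53 to 15.14 in very large tumors (14.84). Small and very large tumors touched at the edge, and the change was 0.54 (SE 0.14, limma adjusted p = 0.0224). Its slope was 0.33 per 10-fold weight (SE 0.09, limma adjusted p = 0.0310), and the brighter Rpl14 probe gave 0.23 for very large against small (adjusted p = 0.339). The call between the classes was lost without small replicate 4 or without very large replicate 3, 4 or 5, and that along weight without any of 6 of the 24 arrays, while 4 probes were called without small replicate 1.

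Rpl13, a large-subunit protein, fell with weight on probe 896698. It ranged from 14.50 to 15.03 in small tumors (median 14.88) and from 14.32 to 14.52 in very large ones (14.43), which overlap slightly. The slope was -0.27 (SE 0.08, limma adjusted p = 0.0489), and very large against small gave -0.39 (adjusted p = 0.0684). The call along weight was lost on leaving out any of 14 of the 24 arrays. Against the brightest Rpl13 probe, which gave 0.24, it fell by 0.63 (SE 0.11, limma adjusted p = 0.00211). This was the 1 pair that differed of the 75 (73 within a gene, 2 of paralog and parent), where 3.97% of all pairs did.

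Rps6 (0.04), Rps19 (0.20) and Rpl11 (0.99, adjusted p = 0.140) did not pass in very large against small tumors. In contrast to the members, 8 of 46 biogenesis factors rose and none fell, where 2.25% and 2.45% of all probes did. Noc2l (1.64), Ddx21 (0.47) and Rrp12 (0.69) had the smallest p. Along weight 14 of these factors rose, where 2.62% of all probes did. Muscle and fat markers were higher in small tumors: muscle markers summed to 27 to 3720 in small and 13 to 1036 in very large tumors (4 of 7 fell), adipocyte markers to 247 to 3128 and 167 to 437 (6 of 9 fell), and all 3 erythroid markers rose. With muscle and adipocyte levels as covariates 0 ribosomal protein probes were called, and the median was 0.17. One array stood apart: on large replicate 6, which also had the lowest array median of set 1 (558), 107 of the 135 probes were below their own mean. Without it 6 probes rose and 1 fell along weight.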

How the data were processed

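RNA from frozen sections was read on single-colour arrays with digoxigenin label, per the labels' protocols. The authors deposited probe intensity values in a pair of tables: a ganglia table described there as quantile normalized (12688 probes, 11 arrays), and an unnormalized table of all 35 arrays (33012 probes, 32996 complete in set 1). At every rank the ganglia table holds the highest of the 11 unnormalized values (100% of ranks). Set 1 was quantile normalized here. To read the 2 tumors on their set 1 arrays, these arrays and the 11 of set 2 were quantile normalized together. That step used the unnormalized values of 32996 probes, and the set 2 tumor arrays were left out of its fit. Intensities were floored at the 1st percentile and log2 transformed. Groups were fitted per set with limma 3.58.1 (R 4.3.3, intensity trend, two-sided) and Benjamini-Hochberg adjustment over all probes of the set, threshold 0.05. The same call was used for probe pairs. Scripts were tested on simulated data. Columns of other samples: 0.

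The members, gene lists and tests were chosen with earlier results of these data known. Named probes are the 6 highest and 6 lowest called in each comparison, the 4 brightest and 4 dimmest, paralogs with parents, genes whose probes differ, and Rpl11, Rps6 and Rps19. Symbols came from the deposited annotation, updated through RefSeq. The number of arrays limits precision. 1 item that this rule would name is not reported here.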

Additional observations from a re-analysis of the deposited data

Results flagged for a closer look

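A single array stood far from the rest of its group for 11 named probe levels and for 2 array medians, out of 125 groups tested; about 1 in 20 groups would be marked by chance. Large replicate 6 was lowest for Rps25 (592061, 11.97, others 13.75 to 14.23), Rplp1 (899792, 17.71, others 19.28 to 19.92), Rpl39 (901877, 18.30, others 19.56 to 19.91) and Rpl29 (902282, 19.75, others 20.14 to 20.25), and for the median deviation of all 135 probes (-0.49, others -0.01 to 0.08). Very large replicate 4 was lowest for Rpl36a (362031, 9.00, others from 11.61) and Rpl39 (901877, 19.06, others from 19.54). Medium replicate 5 had the lowest median deviation of its group (-0.12, others 0.05 to 0.12), and medium replicate 4 the lowest Rpl19 (20.81, others from 20.98). Among small tumors, replicate 4 was lowest for Rpl12 (372691, 12.70, others from 12.87) and replicate 2 for Rps12 (900099, 21.16, others from 21.37). Day 0 replicate 5 was highest for Rpl7a (20.30, others up to 19.97) and lowest for Rps12 (900099, 20.90, others from 21.75).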

How the results depend on the processing

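No paired analysis was possible within the comparisons, because the labels give no replicate numbers shared between the groups compared. The 2 tumors read on arrays of both sets are matched by name across the sets only. Counts after leaving out arrays or changing the processing, here and above, are given without the share of all probes called in the same fit. A change in such a count need not be particular to the ribosomal protein probes. Leaving out 1 array at a time, the ribosomal protein probes called ranged from 0 to 4 for very large against small, 0 to 1 for large, 0 to 0 for medium, 0 to 7 for weight, 0 to 3 for day 7 against day 0, 0 to 18 for day 14 against day 0, 0 to 0 for day 14 against day 7, and 45 to 76, 31 to 52 and 56 to 72 for tumors against day 0, 7 and 14. With no normalization between arrays the calls were 0 for very large against small, weight, day 7 and day 14 against day 0, 20 for tumors against day 7 and 10 against day 14. The median of all probes then moved to 0.71 for day 14 and 0.92 for tumors, both against day 0, with 0.31 and 1.11 for the members; Rpl4 (0.10) and Rpl29 (0.032 on 899447, 0.080 on 895736) changed sign for day 14, all still below the shift of all probes. Against day 0, 56 members were then higher in tumors and 3 lower. With arrays centred on their medians the calls were 0 for very large against small, 1 for weight, 0 for day 7 against day 0, and 40 (22 higher), 39 (23 higher) and 51 (47 higher) for tumors against day 0, 7 and 14. Over the probes of the ganglia table alone, set 1 gave 4, 1 and 6 calls for very large, large and weight. Without the intensity trend the calls were 0 for very large, 0 for weight, 0 for day 7 and 2 for day 14 against day 0. Life span as a covariate gave 0 and 0 calls for very large and weight, and muscle and adipocyte levels 0 and 0. The series table normalized over all its probes gave 0 calls for day 7 and 5 for day 14 against day 0. Day 0 replicates 3 to 5 alone gave 25 and 35 calls, and replicates 1 and 2 alone 0 and 3. In probe pairs, tumors against day 0, 39 differed, 50 without normalization and 37 without the trend. With the 2 tumors read on set 1 arrays, 40 of the 59 rises and 2 of the 13 falls against day 0 remained called. Rpl14 (793761, from 1.38 to -0.74, limma adjusted p = 0.0150) was called in the opposite direction. So was Rps2 (901987, from -1.53 to 0.39, limma adjusted p = 0.0162). Of the 72 probes called against day 0, 17 changed sign (10 that rose and 7 that fell), among them Rpl19 (0.22), Rps2 (901987, 0.39), Rps12 (0.57), Rps24 (-0.017), Rpl11 (-0.084) and Rpl41 (-0.043). Among the named probes signs also turned against day 7 for Rps2 (0.016), Rps12 (0.75) and Rpl19 (0.71), and against day 14 for Rps2 (0.24) and Rpl19 (0.76). The causes were not tested. Without depth or background values per spot, bright probes near the top of the scale and dim probes near the floor were not judged apart.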
